A study of Mus musculus with 9 samples.

Results

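The genes described here are the interferon-responsive genes of the mouse main olfactory epithelium together with the Irf and Stat transcription factors, the type I and type II interferon receptor chains, and the Ifit, Ifitm, Oas, Mx, Gbp, Ifi and Isg families. They were chosen by a rule on gene symbols, and 71 of the 21909 gene symbols in the deposited tables met the rule. The study sorted 3 cell populations from 4-week-old mice and sequenced the poly-A RNA of each as 1 library. Horizontal basal cells (HBC), the reserve stem cells of the epithelium, were sorted with a PE-coupled antibody to CD54, the product of Icam1. Globose basal cells (GBC), the dividing neuronal precursors, were sorted by EGFP from a Neurog1-EGFP reporter, and mature olfactory sensory neurons (mOSN) by EGFP from an OMP-ires-EGFP allele. The labels name no strain, sex, treatment or number of animals for these sorts, and no interferon-treated group is among the libraries used.

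Interferons are secreted proteins that cells release when they detect viral nucleic acid or, for interferon gamma, when lymphocytes are activated. Type I interferons bind Ifnar1 and Ifnar2, interferon gamma binds Ifngr1 and Ifngr2, and both receptors act through Janus kinases that phosphorylate Stat proteins. Stat2 and Irf9 take part in the complex that binds the interferon-stimulated response element, paired Stat proteins bind the gamma-activated site, and the genes with such elements encode much of the antiviral machinery of the cell. CD54 is carried by leukocytes and endothelial cells as well as by horizontal basal cells.

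Levels are FPKM, fragments scaled by transcript length and by library size, and comparisons between libraries are log2 ratios of FPKM + 1, which understate differences between low values. Every statement of 2-fold refers to that FPKM + 1 scale. The call rule asked for a log2 ratio of at least 2 and for 5 FPKM or more in the higher of the 2 libraries. Where 3 values follow a gene without library names, they are those of HBC, GBC and mOSN in that order. With 1 library per population there was no replicate check, no test and no p-value, and the intervals printed are the deposited ones, which cover the uncertainty of 1 library's estimate and not the spread between animals. Per the labels, ScriptSeq reagents served for HBC and an Illumina mRNA kit for GBC and mOSN, so for every comparison with HBC the population and the kit cannot be told apart. In sorted bulk RNA, fewer expressing cells and less RNA per cell cannot be told apart either.

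The sort genes followed the labels. Icam1 was at 136 FPKM in HBC, compared with 0.0456 in GBC and 0.349 in mOSN, Neurog1 at 0.0538, 163 and 0.0189, and Omp at 71.6, 427 and 1487. All 10 horizontal basal cell markers were called higher in the HBC library than in either other library, with Krt14 at 451 FPKM and Krt5 at 334. The HBC library also held markers of leukocytes: all 19 macrophage and monocyte markers were called higher there than in GBC and than in mOSN, and their summed level was 3591 FPKM in HBC, beside 7.35 in GBC and 5.03 in mOSN. Ctss was at 638 FPKM and Lyz2 at 573 in HBC, and Aif1 was the macrophage marker listed at 0 in mOSN. Sums for 15 lymphocyte markers were 202, 2.32 and 0.471 FPKM, for 10 neutrophil markers 169, 14.3 and 10.1, for 8 dendritic cell markers 75.3, 9.43 and 12.7, for 7 plasmacytoid dendritic cell markers (which include Bst2, itself among the 71 genes) 63.5, 21.2 and 19.3, and for 10 endothelial markers 19.1, 2.18 and 1.83. Called higher in HBC than in GBC were 9 of the 15 lymphocyte, 6 of the 10 neutrophil, 3 of the 8 dendritic, 3 of the 7 plasmacytoid and 0 of the 10 endothelial markers, and the counts against mOSN were 9, 5, 3, 3 and 0. Over all genes, 6.86% were called higher in HBC than in GBC and 7.07% higher than in mOSN. In HBC, Ptprc, which leukocytes in general carry, made 63.4 of the 202 FPKM of the lymphocyte list, and S100a9 60.2 of the 169 of the neutrophil list. The lymphocyte markers Cd8a and Klrb1c and the dendritic markers Xcr1, Clec9a, Cd209a and Batf3 were listed at 0 in both GBC and mOSN. Zbtb46 made 9.38 of the 9.43 FPKM of the dendritic list in GBC and 12.6 of the 12.7 in mOSN, and of the plasmacytoid list Tcf4 (9.53, 14.3 and 8.63) and Pacsin1 (1.34, 5.81 and 9.96, called higher in mOSN than in HBC) made most of the GBC and mOSN sums. The 8 sustentacular cell markers also summed highest in HBC, at 1797 FPKM against 39.7 and 148, with 4 called higher there than in each other library. Of that HBC sum, Cbr2 made 881 FPKM and Cyp2f2 748, while Cyp2g1, Cyp1a2 and Muc2 were highest in mOSN. By their sums the leukocyte, sustentacular and horizontal basal cell lists were thus all highest in HBC, as were most of the genes below. The part of each of these cell types in those results was not tested.

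**Figure D1:**
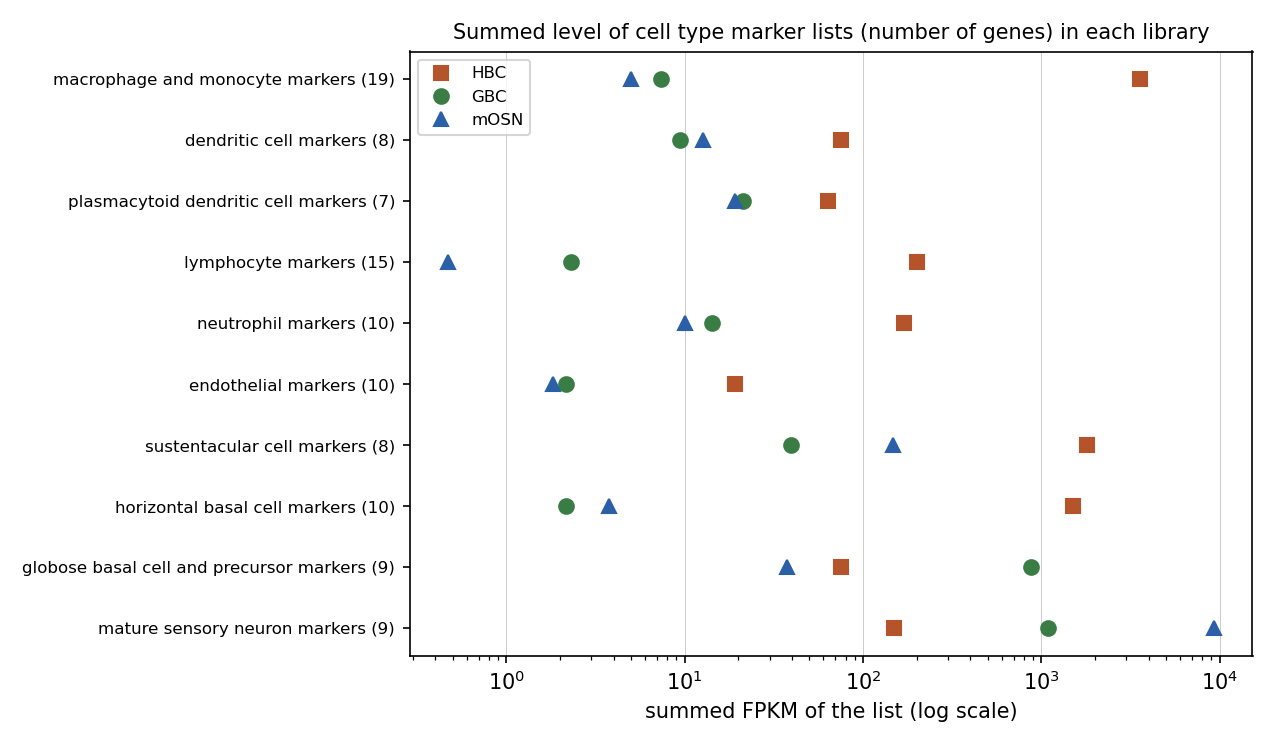
Summed FPKM (log scale) of each cell type marker list in the HBC, GBC and mOSN libraries, with the number of genes in brackets. The macrophage list sums to 3591 FPKM in HBC against 7.35 and 5.03 in the other 2 libraries, more than the 1513 FPKM of the horizontal basal cell list in the same library.

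The 71 genes were detected mainly in the HBC library. In HBC 63 of the 71 reached 1 FPKM, in GBC 23 and in mOSN 24, while the share of all genes reaching 1 FPKM was nearly equal in the 3 libraries, at 52.0%, 52.0% and 52.7%. At 5 FPKM or more there were 42, 12 and 13, and the median over all 71 genes was 7.73 FPKM in HBC, against 0.254 in GBC and 0.276 in mOSN. Their summed level was 1067 FPKM in HBC, compared with 213 in GBC and 195 in mOSN. Of the 44 genes that reached 5 FPKM in any library, 38 had their highest value in HBC, 2 in GBC (Stat2 and Isg20l2) and 4 in mOSN (Ifit1, Ifit2, Irf2bp1 and Irf2bp2).

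By the call rule, 26 of the 71 genes (36.6%) were higher in HBC than in GBC, and 6.86% of all genes were called in that direction. No member was called higher in GBC than in HBC, where 6.44% of all genes were. Among genes of at least 5 FPKM in either library the counts were 26 of 42 (61.9%) against 16.5% of genes for HBC, and 0 of 42 against 15.5% for GBC. Against mOSN, 27 of the 71 (38%) were higher in HBC, beside 7.07% of all genes, and 0 were higher in mOSN, beside 10.7%. At 5 FPKM or more in either library these were 27 of 44 (61.4%) against 15.8% of genes, and 0 of 44 against 24%. A gene enters the shares at 5 FPKM through the library where it is high. Members at that level numbered 42 in HBC, 12 in GBC and 13 in mOSN, so these shares describe the values and support nothing further. Called higher in HBC than in both other libraries were 25 genes, with Ifnar2 called against GBC alone and Ifitm2 and Isg15 against mOSN alone. The counts moved with the settings, from 9 (at least 20 FPKM required) to 47 (libraries rescaled to a common sum) against GBC and from 9 to 49 against mOSN. The common sum raised the HBC values while the floor of 5 and the pseudocount of 1 stayed the same, which loosened the rule. Gbp10, at 0.924 FPKM in HBC, was called under it. With a pseudocount of 5 FPKM, 11 genes were called in each comparison, among them Bst2, Ifi27l2a, Ifi30, Ifitm3, Ifngr1, Irf1, Irf5, Irf7, Irf8 and Stat6 in both.

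**Figure D2:**
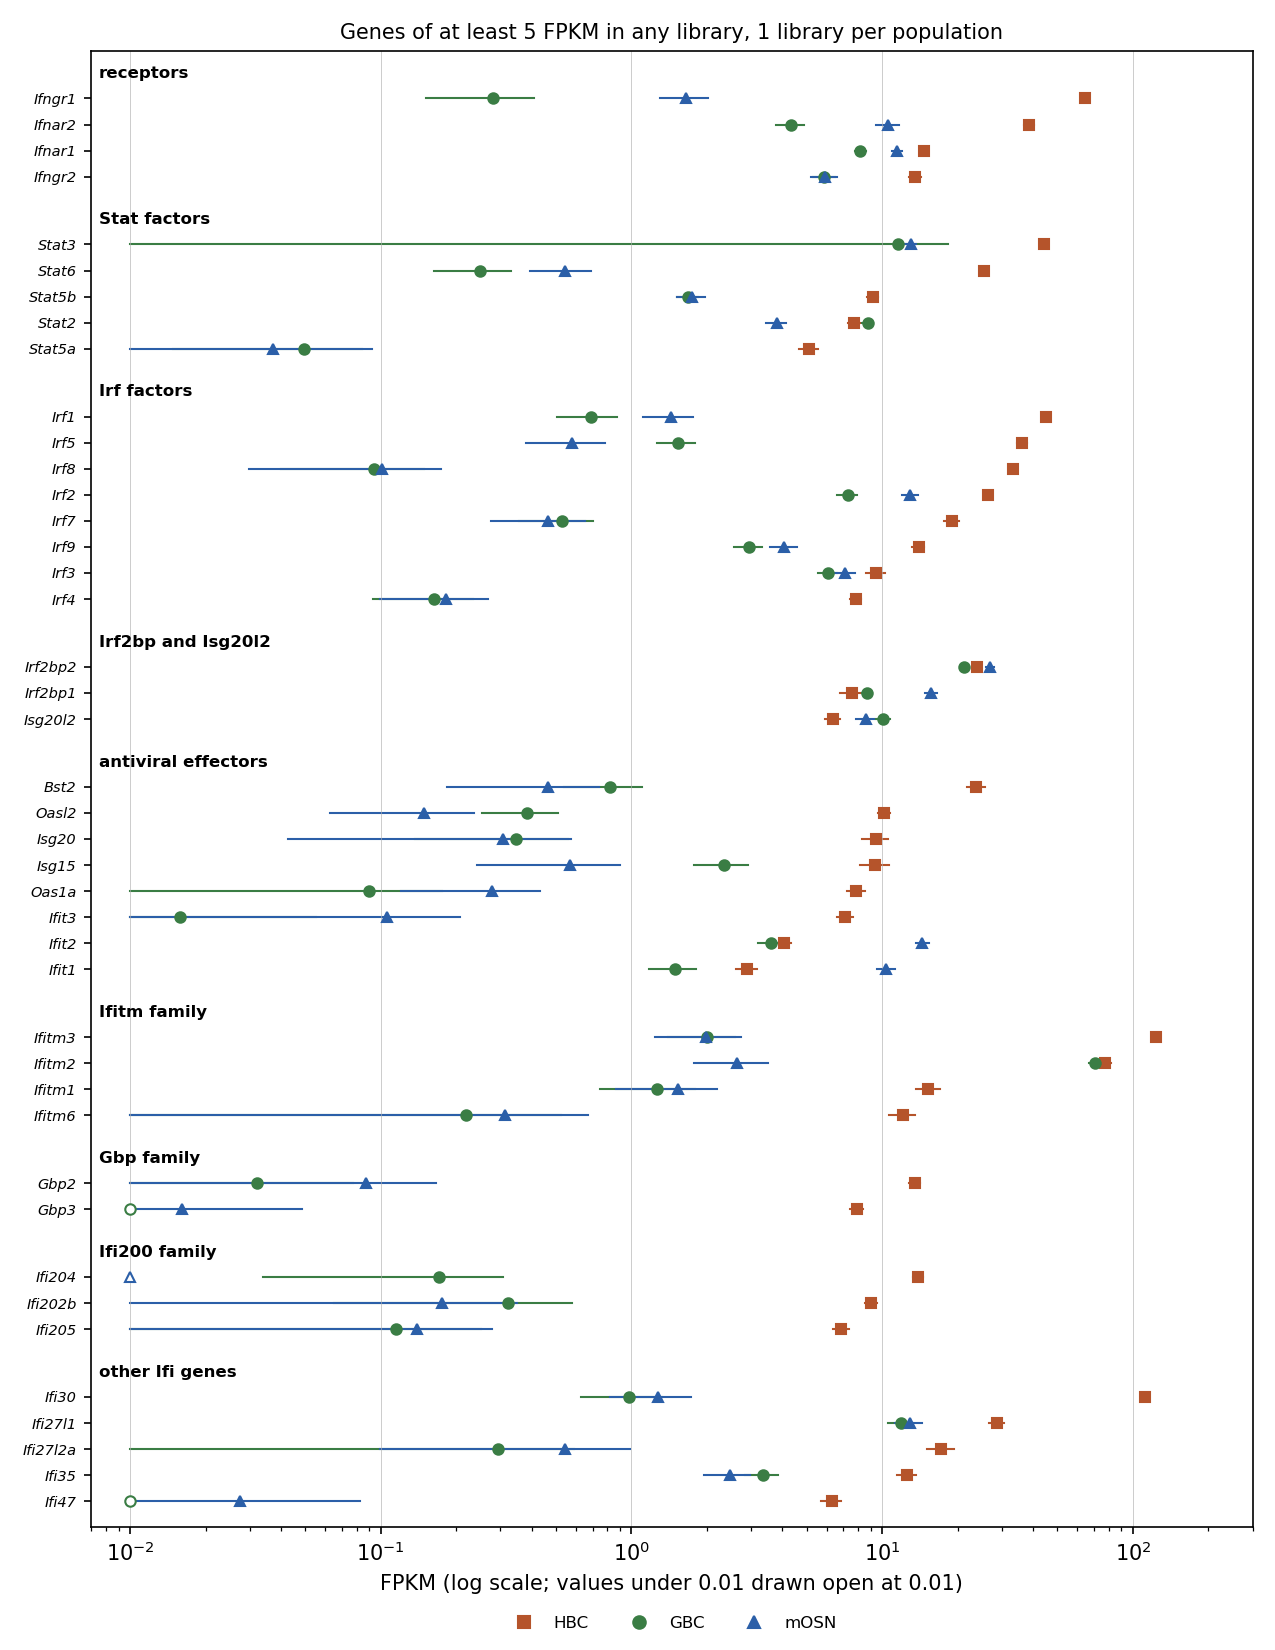
FPKM (log scale) of 42 of the 44 genes of at least 5 FPKM in any library, grouped by role, with the deposited interval as a line. Squares are HBC, circles GBC and triangles mOSN. Squares lie rightmost for 36 of the 42 genes, while Stat2, Irf2bp1, Irf2bp2, Isg20l2, Ifit1 and Ifit2 have their highest value in another library. The long line for Stat3 in GBC is the interval of a failed estimate.

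The receptor chains differed among themselves. Ifnar1, a chain of the type I receptor, was at 14.7 FPKM in HBC, beside 8.18 in GBC and 11.5 in mOSN, and Ifnar2, the other chain, was at 38.6, 4.33 and 10.6. Ifnar1 lay within 2-fold in all pairs of libraries in deposited FPKM, though its log2 ratio of GBC to HBC, -0.78, was -1.24 with median-of-ratios scaling and -1.45 with 1 conversion factor, and that of mOSN to HBC, -0.33, was -1.18 with the latter. Ifnar2 had a log2 ratio of -2.89 for GBC to HBC and of 1.12 for mOSN to GBC. Ifngr1, the ligand-binding chain for interferon gamma, was at 64.5 FPKM in HBC, against 0.280 in GBC and 1.66 in mOSN, with log2 ratios to HBC of -5.68 and -4.62. Ifngr2, the second gamma chain, was at 13.6, 5.88 and 5.92 FPKM, so it was measured above 5 FPKM in the libraries where Ifngr1 was below 2. The genes of Ifnar2, Ifnar1 and Ifngr2 are neighbours on chromosome 16 (mm9, starting at 91373028, 91485460 and 91547339), and Ifngr1 lies on chromosome 10.

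Among the Stat genes, Stat5a and Stat6 were called higher in HBC than in GBC and than in mOSN. Stat6, which carries signals from interleukin 4 and 13 rather than from interferons, was at 25.4 FPKM in HBC, compared with 0.248 in GBC and 0.542 in mOSN. Stat5a was at 5.11, 0.0496 and 0.0371 FPKM, and its neighbour on chromosome 11 and close relative Stat5b at 9.16, 1.68 and 1.74. These 2 genes are near copies, and no source used here says how reads were divided between them. Stat3, the factor downstream of interleukin 6, was at 44.1, 11.5 and 13.0 FPKM, but the GBC estimate failed in the deposited table (interval 0 to 18.3). Stat4 stayed below 5 FPKM, at 4.01, 0.254 and 0.104. Stat2, which acts in the type I interferon complex, was not highest in HBC, at 7.73 FPKM in HBC, beside 8.76 in GBC and 3.80 in mOSN. Its interval in GBC (8.30 to 9.23) lay above that in HBC (7.30 to 8.17), and its GBC-to-mOSN difference reached 2-fold (log2 ratio mOSN to GBC -1.03) without passing the call rule. The order of GBC and HBC for Stat2 turned with median-of-ratios scaling (log2 ratio GBC to HBC 0.16, and -0.29 with that scaling), and the 2 values lay within 2-fold.

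Of the Irf genes, 5 (Irf1, Irf4, Irf5, Irf7 and Irf8) were called higher in HBC than in each other library, beside 6.86% of all genes against GBC and 7.07% against mOSN. Irf1, an early target of interferon gamma, was at 44.9 FPKM in HBC, against 0.689 in GBC and 1.44 in mOSN. Irf5, a factor of the inflammatory response in myeloid cells, was at 36.2, 1.53 and 0.580, and Irf8, required for monocyte and dendritic cell development, at 33.2, 0.0943 and 0.101. Irf7, which drives type I interferon genes, was at 18.9, 0.530 and 0.463, and Irf4, a factor of lymphocytes and dendritic cells, at 7.86, 0.163 and 0.183. The log2 ratios of these 5 to HBC ran from -2.93 to -4.97 in GBC and from -2.91 to -4.96 in mOSN. Irf8 had the lowest value of the 5 in both GBC and mOSN.

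Irf2, Irf3 and Irf9 were measured in every library. Irf3, the factor activated by cytosolic nucleic acid sensors, was at 9.42 FPKM in HBC, compared with 6.10 in GBC and 7.11 in mOSN. Irf2, a repressor that competes with Irf1, was at 26.4, 7.28 and 13.0. Irf9, the partner of Stat2, was at 14.0, 2.94 and 4.06. All of these were highest in HBC and lowest in GBC, and none was called in the deposited FPKM, though the order of GBC and mOSN for Irf3 turned with a common sum (log2 ratio mOSN to GBC -0.15) and with 1 conversion factor (-0.22). Irf9 was called higher in HBC than in GBC in 4 of the 5 other settings, at log2 ratios of -2.09 to -2.37, and higher than in mOSN with a common sum (-2.21) and median-of-ratios scaling (-2.09). Irf2 was called higher in HBC than in GBC with median-of-ratios scaling (-2.20) and with 1 conversion factor (-2.38).

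A set of 3 genes met the rule by name only. Irf2bp1 and Irf2bp2 encode corepressors named for their binding to Irf2, and Isg20l2 encodes a nucleolar ribonuclease related to Isg20. Irf2bp2 was at 23.8 FPKM in HBC, beside 21.2 in GBC and 27.0 in mOSN, Irf2bp1 at 7.57, 8.70 and 15.7, and Isg20l2 at 6.35, 10.1 and 8.59. None was called, and in deposited FPKM none had its highest value in HBC. That order turned under other scalings: the log2 ratio of mOSN to HBC was 0.18 for Irf2bp2 and 0.38 for Isg20l2, and -0.39 and -0.14 with median-of-ratios scaling. The GBC-to-HBC ratio of Irf2bp1 depended on the conversion from fragments to FPKM. Its deposited interval implied 393 fragments in HBC and 1982 in GBC, and with 1 conversion factor for all libraries its log2 ratio went from 0.18 to 2.07.

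The promoters of the matched genes were searched for the 2 elements through which interferon Stat complexes act, since many of these genes shared the HBC pattern. Of the 71 genes, 53 had a RefSeq GRCm38.p6 window running from 250 bases before to 50 after the transcription start, 1 of them through a synonym. The response element was searched as GAAA, any 2 bases, GAAA, and the gamma-activated site as TTC, any 3 bases, GAA, each on both strands, so that a response element on the opposite strand reads TTTC, any 2 bases, TTTC. The first was present in 20 of the 53 genes (37.7%) and in 3.99% of all 27025 genes. The second was present in 15 of the 53 (28.3%) and in 9.55%. A gene counted if any of its windows held a match. Both were present in 5 of the 53, and the 2 motifs overlapped one another in 24 of 32851 windows (0.0731%). The 53 genes were chosen by name, so these contrasts with all genes draw on no level in the 3 libraries. Many of those names refer to interferon, which acts through these elements. A share above that of all genes may thus be built into the choice, and the contrasts are a description. The sequences below cover a match in genes with contrasting levels, with the matched bases in capitals, read 5′ to 3′ in the direction of the gene. The first 6 hold the response element. Ifit1 lies on the plus strand at chr19:34640765-34640833, Ifit3 on plus at chr19:34583353-34583436, Isg15 on minus at chr4:156200855-156200916, Oas1a on minus at chr5:120907526-120907565, Gbp2 on plus at chr3:142620584-142620633 and Ifitm2 on minus at chr7:140955978-140956027. The last 2 hold the gamma-activated site, with Irf1 on plus at chr11:53769904-53769952 and Isg20 on plus at chr7:78913331-78913379.
Ifit1: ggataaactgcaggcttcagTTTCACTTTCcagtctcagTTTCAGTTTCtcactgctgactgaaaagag
Ifit3: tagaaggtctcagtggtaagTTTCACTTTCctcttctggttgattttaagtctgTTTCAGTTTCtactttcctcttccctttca
Isg15: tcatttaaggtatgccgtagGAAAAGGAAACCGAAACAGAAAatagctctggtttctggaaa
Oas1a: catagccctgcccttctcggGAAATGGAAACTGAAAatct
Gbp2: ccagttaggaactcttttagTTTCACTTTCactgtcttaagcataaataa
Ifitm2: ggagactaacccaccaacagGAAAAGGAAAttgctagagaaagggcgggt
Irf1: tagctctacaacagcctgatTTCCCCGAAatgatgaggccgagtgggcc
Isg20: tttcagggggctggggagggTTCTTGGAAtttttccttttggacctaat

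Ifit1 and Ifit3 each had 2 matches of the response element upstream of the start, with their first bases 104 and 85 bases upstream in Ifit1 and 156 and 122 in Ifit3, and Isg15 had 3 overlapping ones between 78 and 66 bases upstream. The response element was in 7 of the 23 matched genes called higher in HBC than in GBC (30.4%) and in 13 of the 30 other matched genes (43.3%). Over all genes called higher in HBC than in GBC and found in RefSeq by symbol, it was in 67 of 1064 (6.3%). The gamma-activated site was in 9 of the 23 called genes (39.1%), in 6 of the 30 others (20%) and in 10.4% of the 1064. A match is a run of letters in a short window and does not show that a factor binds there.

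Among the antiviral effectors, 5 of 21 genes were called higher in HBC than in GBC (Bst2, Ifit3, Isg20, Oas1a and Oasl2), and the same 5 and Isg15 were called against mOSN. The shares of all genes called in these directions were 6.86% and 7.07%. Bst2, the membrane tether of budding virions, was at 23.7 FPKM in HBC, against 0.818 in GBC and 0.463 in mOSN. Oasl2, an oligoadenylate synthetase-like protein, was at 10.2, 0.381 and 0.149, and Isg20, an exonuclease of viral RNA, at 9.42, 0.347 and 0.307. Isg15, the ubiquitin-like modifier, was at 9.39 FPKM in HBC, compared with 2.34 in GBC and 0.571 in mOSN, with intervals that were apart in all pairs of libraries. Oas1a, an oligoadenylate synthetase, was at 7.87, 0.0900 and 0.276. The other 9 Oas genes of the chromosome 5 cluster and Oasl1 were below 3 FPKM in every library, and Oas1h was at 0 in all. The Oas1 genes are near copies of one another, so their separate values are uncertain. Mx1, which blocks influenza-type viruses, was at 2.68 FPKM in HBC and listed at 0 in both other libraries, and Mx2 was at 1.37, 0.0723 and 0.888. Ifih1, the cytosolic sensor of long double-stranded RNA, was at 4.46, 0.352 and 1.18.

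The Ifit genes, whose products bind viral RNA and block its translation, split within their cluster on chromosome 19. Ifit2 (mm9 34625184 to 34651024) was at 14.5 FPKM in mOSN, beside 4.06 in HBC and 3.61 in GBC. Ifit1 (34715379 to 34724499) was at 10.4 FPKM in mOSN, against 2.88 in HBC and 1.49 in GBC. Ifit3, which lies between them (34658019 to 34663472), was at 7.13 FPKM in HBC, compared with 0.0158 in GBC and 0.106 in mOSN. The order of the libraries was therefore mOSN, HBC, GBC for the outer genes and HBC, mOSN, GBC for the middle one. For Ifit1 the log2 ratio of mOSN to GBC was 2.19 and to HBC 1.55, and for Ifit2 the ratios were 1.75 and 1.61. The mOSN intervals, 9.55 to 11.2 for Ifit1 and 13.6 to 15.3 for Ifit2, lay apart from those of both other libraries. On the FPKM + 1 scale these were the only 2 of the 71 genes that were at least 2-fold higher in mOSN than in HBC, with Irf2bp1 just under it at a log2 ratio of 0.96. Over all 14092 genes of at least 1 FPKM in either library, 40.4% were at least 2-fold higher in mOSN than in HBC. Sustentacular cell markers summed to 148 FPKM in mOSN, beside 39.7 in GBC and 1797 in HBC. The HBC sum came mainly from Cbr2 (881 FPKM) and Cyp2f2 (748). Cyp2g1 was at 11.1, 7.76 and 46.1, Cyp1a2 at 1.99, 0.999 and 5.14 and Muc2 at 1.05, 0.707 and 2.12. These had the same order of libraries as Ifit1 and Ifit2. All other markers of the list (Cbr2, Cyp2f2, Ugt2a1, Sox2 and Ermn) were highest in HBC. Of the 8 markers, Cyp2g1 and Ugt2a1 (135, 3.63 and 31.4) were, like Ifit1, called higher in mOSN than in GBC. None of the list was called higher in GBC than in mOSN. Over all genes, 2.82% were called higher in mOSN than in GBC and 1.25% the other way. The part of sustentacular cells in the mOSN values was not tested. The distance from HBC was smaller when 1 conversion factor per gene was used for all libraries, with log2 ratios of mOSN to HBC of 0.53 for Ifit1 and 0.24 for Ifit2, while those to GBC were 2.11 and 1.71. With a pseudocount of 5 FPKM the Ifit1 ratio to GBC was 1.25, under the call rule.

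**Figure D3:**
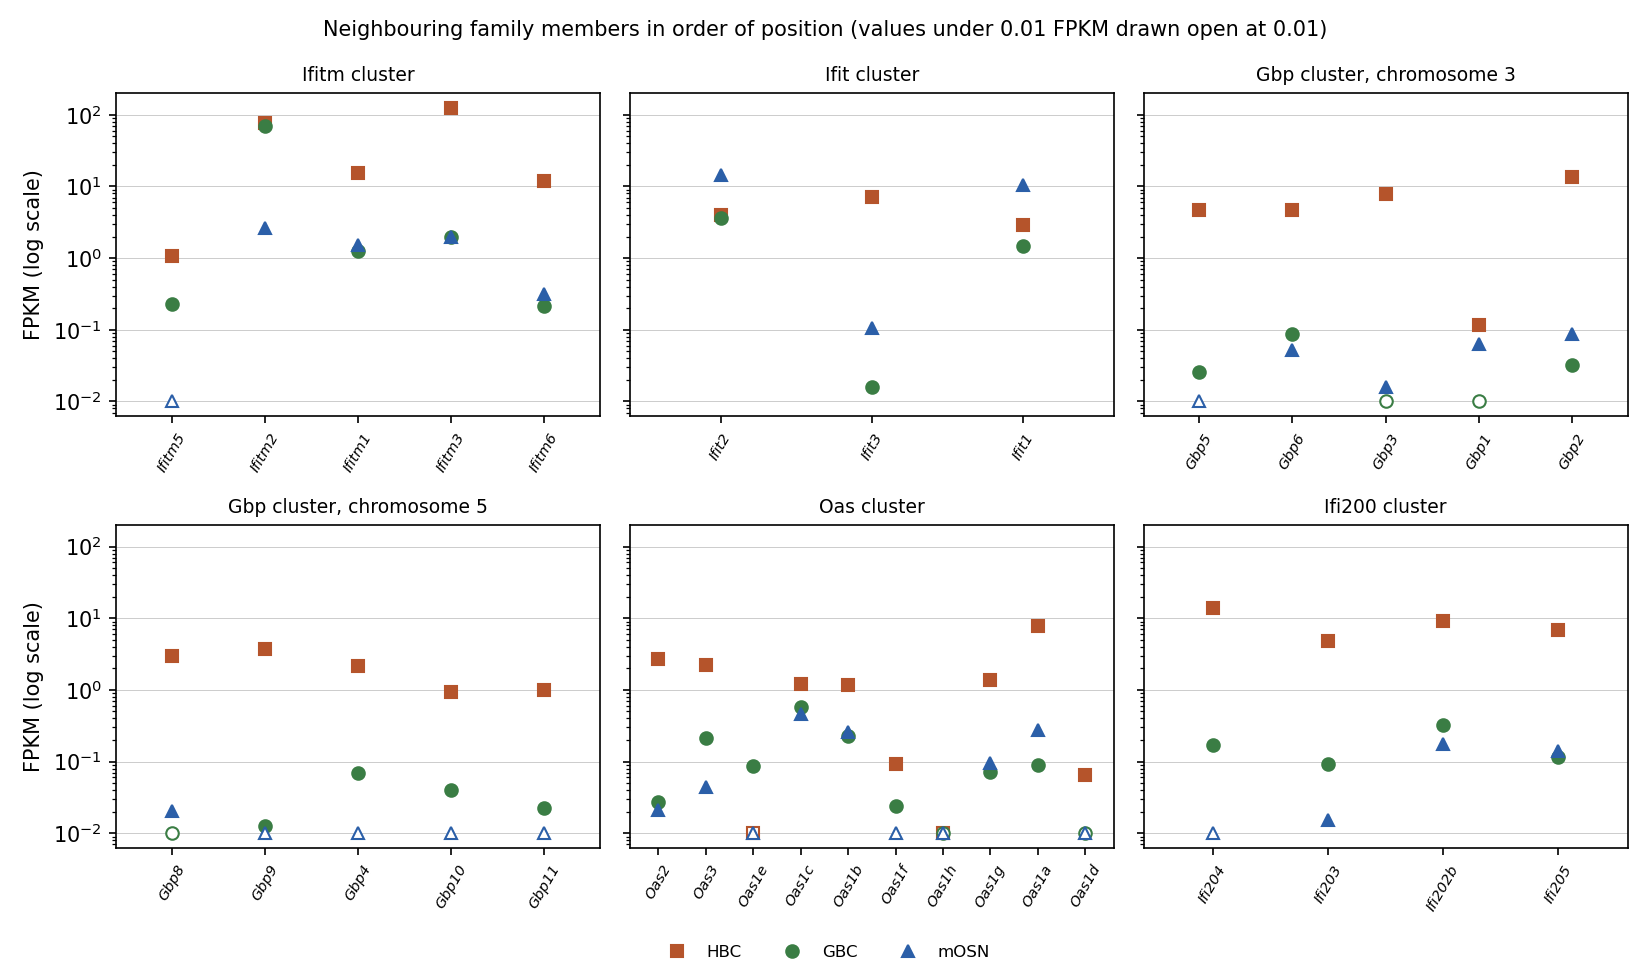
FPKM (log scale) of family members in order of their position along the chromosome, for HBC (squares), GBC (circles) and mOSN (triangles). In the Ifit panel mOSN is highest for Ifit2 and Ifit1 and HBC for Ifit3. In the Ifitm panel GBC reaches 70.9 FPKM for Ifitm2 alone, and in both Gbp panels GBC and mOSN stay under 0.1 FPKM.

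The Ifitm proteins, which stop virus entry at endosomal membranes, included the highest member value of HBC and of GBC. Ifitm3 was at 124 FPKM in HBC, against 1.996 in GBC and 1.99 in mOSN, a log2 ratio of -5.38 for GBC to HBC and -5.39 for mOSN to HBC. Ifitm2 was at 77.7 FPKM in HBC, compared with 70.9 in GBC and 2.64 in mOSN. Its HBC and GBC intervals overlapped (73.8 to 81.5 and 67.0 to 74.8), and its log2 ratio was -4.30 for mOSN to GBC. Ifitm1 was at 15.3, 1.27 and 1.53 FPKM, and Ifitm6 at 12.1, 0.218 and 0.312. Ifitm5, a bone gene, was at 1.07, 0.232 and 0, and Ifitm7, on chromosome 16, stayed under 0.5 FPKM. In GBC, Ifitm2 alone made 70.9 of the 75.1 FPKM of the family. Short transcripts of the family are similar in sequence, and the sharing of reads between Ifitm2 and Ifitm3 cannot be checked from FPKM values.

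The interferon-gamma-induced GTPases of the Gbp family, which attack the vacuoles of intracellular pathogens, were measured in HBC alone. Gbp2 was at 13.5 FPKM in HBC, beside 0.0322 in GBC and 0.0876 in mOSN, and Gbp3 at 7.93, 0 and 0.0161. The 10 genes summed to 41.8 FPKM in HBC, against 0.299 in GBC and 0.252 in mOSN, and 8 of the 10 reached 1 FPKM in HBC and none in the others. The Ifi200 family of nucleic acid binding proteins on chromosome 1 was likewise highest in HBC. Ifi204 was at 13.9 FPKM in HBC, compared with 0.170 in GBC and 0 in mOSN, Ifi202b at 9.03, 0.322 and 0.175, and Ifi205 at 6.86, 0.115 and 0.139, with Ifi203 at 4.81, 0.0931 and 0.0152. Both families hold near copies whose reads may be shared, but no member of either reached 0.4 FPKM in GBC or mOSN.

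Of the other Ifi genes, Ifi30, a lysosomal thiol reductase of antigen-presenting cells, was at 111 FPKM in HBC, beside 0.976 in GBC and 1.27 in mOSN, with log2 ratios of -5.83 and -5.63. Ifi27l2a was at 17.2, 0.294 and 0.541, and Ifi47, an immunity-related GTPase, at 6.29, 0 and 0.0275. Ifi35, a protein that partners Nmi, was at 12.5, 3.34 and 2.47. Ifi27l1, the neighbour of Ifi27l2a on chromosome 12, was at 28.6, 11.9 and 12.9 FPKM and was not called. Ifi27l2b, the third gene there, was listed at 0 in all 3 libraries.

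The 27 genes that did not reach 5 FPKM were mostly highest in HBC as well. Of these, 19 peaked between 1 and 5 FPKM, all in HBC, and 8 stayed under 1 FPKM everywhere: Gbp1, Gbp10, Ifi27l2b, Ifitm7, Oas1d, Oas1e, Oas1f and Oas1h. Among the 63 genes of at least 1 FPKM in HBC or GBC, the median log2 ratio of GBC to HBC was -1.998, beside 0.46 over 13736 genes filtered in the same way. For mOSN to HBC it was -2.18 over 63 genes, beside 0.63 over 14092. A gene enters these medians through the library where it is high, so they describe the values and support nothing further.

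Between mOSN and GBC, whose libraries share a kit, the group was close to level. By the call rule 1 of the 71 genes was higher in mOSN (Ifit1), beside 2.82% of all genes, and 1 was higher in GBC (Ifitm2), beside 1.25%. At 5 FPKM or more in either library these were 1 of 15 against 7.12% of genes, and 1 of 15 against 3.16%, so the shares of members were near the background in the first direction and rest on 1 gene in each. Of the 27 genes of at least 1 FPKM in either library, 20 lay within 2-fold, and the deposited intervals of 9 overlapped. The 4 genes at least 2-fold higher in mOSN were Ifit1, Ifit2, Ifnar2 and Ifngr1, and the 3 lower were Ifitm2, Isg15 and Stat2. The median log2 ratio of the 27 was 0.19, beside 0.24 over 12551 genes, and it was below 0 with a common sum (-0.20) and with 1 conversion factor (-0.22). The GBC library held mature neuron markers at a summed 1095 FPKM, against 9324 in mOSN, and the globose basal markers summed to 873 against 37.7.

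The rest of the pathway was read from lists of genes outside the 71. Of 21 interferon genes none was called in any comparison. Interferon gamma (Ifng), at 3.03 FPKM in HBC, against 0.0413 in GBC and 0 in mOSN, was the only one to reach 1 FPKM in a library, and 12, 14 and 20 of the 21 were listed at 0. Ifng and the Janus kinases named next were picked after their values were seen. The kinases of both receptors were measured in all libraries, with Jak1 at 28.4, 23.5 and 34.1 FPKM, Jak2 at 17.4, 5.54 and 10.8 and Tyk2 at 8.90, 4.90 and 4.38. Jak3, the kinase of lymphoid cytokine receptors, was at 8.42, 1.75 and 0.585, called higher in HBC than in mOSN.

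The interferon lambda receptor had another order. Its specific chain Il28ra was at 1.84 FPKM in HBC, compared with 3.14 in GBC and 10.6 in mOSN, called higher in mOSN than in HBC (log2 ratio 2.03). Its shared chain Il10rb was at 27.1, 1.92 and 13.9, called higher in HBC than in GBC (-3.26 for GBC to HBC) and higher in mOSN than in GBC (2.35). Only in mOSN were both chains above 10 FPKM, and both interferon lambda genes on the list (Il28a and Il28b) were listed at 0 there. The Il28ra call was lost with a pseudocount of 5 FPKM (log2 ratio 1.19), a common sum (1.94), median-of-ratios scaling (1.58) and 1 conversion factor (1.74), and the Il10rb call over GBC with a pseudocount of 5 (1.45).

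Of 13 inhibitors of Jak-Stat signalling, 3 were called higher in HBC than in GBC and the same 3 against mOSN. Beside this and the counts below, 6.86% of all genes were called higher in HBC than in GBC and 7.07% higher than in mOSN. Among genes of at least 5 FPKM in either library these shares were 16.5% and 15.8%. Socs3, induced by Stat3, was at 156 FPKM in HBC, beside 2.45 in GBC and 4.18 in mOSN, Ptpn6, a phosphatase of blood cells, at 57.7, 11.6 and 6.93, and Cish, induced by Stat5, at 15.6, 0.522 and 0.112. Socs2 was called in the other direction, higher in GBC than in HBC, at 3.15, 26.8 and 13.4 FPKM, a call lost with a pseudocount of 5 (log2 ratio 1.97). Of 16 sensors and adaptors upstream of the Irf factors, 4 were called higher in HBC than in each other library: the adaptor Myd88 at 29.2, 1.29 and 4.88 FPKM, the endosomal receptors Tlr9 at 13.0, 0.0938 and 0 and Tlr7 at 10.2, 0 and 0.0146, and Tmem173 (STING) at 7.73, 0.155 and 0.110.

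Of 26 other interferon-induced genes, 12 were called higher in HBC than in GBC (6.86% of all genes) and 10 higher than in mOSN (7.07% of all genes). The genes with large ratios included Slfn2, at 67.2 FPKM in HBC, against 0.0421 in GBC and 0.225 in mOSN, and Ly6e, at 161, 10.02 and 1.98, with Lgals3bp at 38.9, 0.946 and 7.06 and Epsti1 at 16.5, 0.0776 and 0.0258. Cmpk2, a mitochondrial nucleotide kinase, was the one gene of the list called higher in mOSN than in HBC, at 2.25 FPKM in HBC, compared with 7.60 in GBC and 26.1 in mOSN. Parp14, at 11.4, 0.849 and 9.39, and Lgals3bp were called higher in mOSN than in GBC. The Cmpk2 call held under all 5 settings tried for it, with log2 ratios of 2.10 to 3.48, and Parp14 missed the rule only with a pseudocount of 5 (1.30). Lgals3bp (1.02 to 2.77) missed it in 3 of the 5 settings. Ifit1, Ifit2, Cmpk2 and Il28ra all had their highest deposited FPKM in mOSN, and they were set side by side after their values were seen. Others of the 26 were also highest there, such as Pml (3.92, 4.14 and 6.51) and Dtx3l (5.13, 1.54 and 5.79), while 10 were called higher in HBC than in mOSN. Over 14092 genes of at least 1 FPKM in HBC or mOSN, 40.4% were at least 2-fold higher in mOSN. Of 10 interferon gamma targets in antigen processing and chemotaxis, 9 were called higher in HBC than in GBC and 8 higher than in mOSN. The immunoproteasome subunits Psmb8 and Psmb9 were at 60.9 and 22.4 FPKM in HBC and at most 0.0613 in the others, and the peptide transporters Tap1 and Tap2 at 18.5 and 42.0 FPKM in HBC and at most 1.44 in the others. Of 6 immunity-related GTPases, Irgm1 was called higher in HBC, at 14.5 FPKM against 0.0179 in GBC and 0.0385 in mOSN.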

How the data were processed

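Poly-A RNA of 3 sorted populations was analysed, 1 library each; 3 samples of 5hmC and 3 of 5mC were not analysed here. The authors deposited FPKM per gene with lower and upper bounds, made with Bowtie, TopHat and Cufflinks on mm9, per the submitters' processing notes, which give no versions. Rows of 1 symbol were added up (22345 rows, 21909 symbols). Fragments were implied from the deposited intervals, whose half-width was taken as 2 × FPKM / √n: about 1.81e+07, 1.81e+07 and 1.65e+07 in HBC, GBC and mOSN. Of the rows implying up to 100 fragments, 71.9% came within 0.03 of a whole number, so these are approximate and no count test was run. Ratios used a pseudocount of 1 FPKM, and calls needed a log2 ratio of 2 and 5 FPKM. The 71 members came from a symbol rule, and the members and the 17 lists (203 of 204 symbols matched) were chosen with earlier results of these data known. Members of at least 5 FPKM are named, apart from a few genes that are not reported by name here though counts include them, and of the pathway lists up to 4 called genes with the largest ratios. Promoter windows came from RefSeq GRCm38.p6, matched by symbol. Python 3.11.15, pandas 2.3.3, numpy 2.4.6 and matplotlib 3.10.9 were used.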

Additional observations from a re-analysis of the deposited data

How the results depend on the processing

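The limits are those of 1 library per population: no spread between animals was measured, the deposited bounds cover estimation within a library, and genes with near copies (Oas1, Gbp, Ifitm, Ifi200, Ifit and Stat5) have uncertain separate values. No paired analysis was possible because each population has 1 library. The count of members higher in HBC than in GBC, 26, was 11 with a pseudocount of 5 FPKM, 9 with at least 20 FPKM required and 47 with the libraries rescaled to a common sum. The count higher in HBC than in mOSN, 27, was 11, 9 and 49 under the same settings. With the common sum the floor of 5 and the pseudocount of 1 were kept on a scale where HBC values were larger. The counts of 47 and 49 therefore also reflect a looser rule for low values. Higher in GBC than in HBC there were 0, and 1 (Irf2bp1) with 1 conversion factor per gene. Higher in mOSN than in GBC there was 1, and 0 with a pseudocount of 5 or with 20 FPKM required, and higher in GBC than in mOSN 1, and 2 with a common sum. The median log2 ratio of GBC to HBC, -1.998, was -3.54 with a pseudocount of 0.1, -0.99 with 5, -3.82 with the 20 FPKM filter and -3.37 with a common sum, and that of mOSN to HBC, -2.18, was -4.40, -1.005, -4.17 and -4.06. The median of mOSN to GBC, 0.19, changed sign, to -1.98 with the 20 FPKM filter (2 members), -0.20 with a common sum and -0.22 with 1 conversion factor. The cause was not tested. Of the calls over all genes, the share higher in the first library went from 48.4% to 34.8% (GBC, HBC) and from 60.3% to 45.9% (mOSN, HBC) with median-of-ratios scaling, and from 69.3% to 45.7% (mOSN, GBC) with a common sum. Median-of-ratios scaling moved the all-gene median log2 ratio of mOSN to HBC from 0.63 to 0.10, and a common sum that of mOSN to GBC from 0.24 to -0.18. Of the 132 ratios of named members, 32 lost a call with a pseudocount of 5, 4 gained one with 0.1, 10 with a common sum, 11 with median-of-ratios scaling and 5 with 1 conversion factor, and 16, none of them called in deposited FPKM, changed sign under some setting. The settings for pathway genes outside the 71 were chosen after seeing the data.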
